A study of Mus musculus with 33 samples.

Results

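The subject here is a set of 10 genes that act on the amyloid-beta peptide outside or inside the cell: the proteases Ide, Mme, Ece1, Ece2, Ctsb, Ctsd, Plat and Mmp2, and the protease inhibitors Timp2 and Cst3. They were chosen by name, from what is known of these enzymes, with earlier results of these data known. They come out of 18193 genes that the platform annotation pairs with probe sets naming 1 gene alone. Every probe set annotated to 1 of the 10 genes and to no other was taken, which gave 29 probe sets. Of these, 26 passed the filter on low signal and entered the tests.

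RNA from the right hippocampus of 33 male mice was read on Affymetrix MOE430 2.0 arrays, 1 array per animal. All animals were 20 weeks old and on a SJL × C57BL/6J background, and they formed 3 groups of 11. The wild-type littermates received vehicle. The Tg2576 mice were heterozygous for a human APP transgene that carries the Swedish familial Alzheimer's disease mutation and is driven by the prion promoter, so it is not under the control of the App gene's own promoter. One group of Tg2576 mice received vehicle and the other TO901317, a compound that activates liver X receptors (LXR), by oral gavage at 50 mg per kg per day. The length of dosing is 7 days in one label and 5 days in another. Wild-type animals given TO901317 were not analysed here, so the drug contrast exists in Tg2576 mice only. Below, "vehicle Tg2576" and "treated Tg2576" name the transgenic groups. The 3 comparisons were vehicle Tg2576 against wild type, treated against vehicle Tg2576, and treated Tg2576 against wild type, and each pair of them shares 1 group of animals.

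Amyloid-beta is cut from the precursor protein APP and is removed in part by proteolysis. Neprilysin (Mme), insulin-degrading enzyme (Ide) and the endothelin-converting enzymes (Ece1, Ece2) are zinc metalloproteases that cleave the soluble peptide. Cathepsins B and D (Ctsb, Ctsd) act in the lysosome and endosome, plasmin is formed by tissue plasminogen activator (Plat), and gelatinase A (Mmp2) is secreted by cells of vessels and glia. Cystatin C (Cst3) inhibits cysteine cathepsins and binds amyloid-beta, and Timp2 inhibits metalloproteinases and also takes part in the activation of pro-Mmp2. The LXR pathway is known in the brain for raising cholesterol efflux genes, through heterodimers with RXR that bind repeats of the half-site AGGTCA.

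Promoter sequences from RefSeq (GRCm38.p6) were found for 7 of the 10 genes, namely Ide, Mme, Ece1, Ece2, Ctsd, Timp2 and Cst3. Each entry covers 250 bases before and 50 bases after a transcription start, and motifs were searched on both strands. The motifs were picked after the expression values were known. CACGTG, the core of the E-box bound by the lysosomal regulator TFEB, was in 2 of the members' 12 entries (that of Ctsd and 1 of 4 starts of Ece1), against 7.15% of all 32851 entries. AGGTCA or its reverse complement TGACCT was in 3 of the 12 (Ide, Ctsd and Cst3), against 16.3% of all entries. The pair of AGGTCA copies in 1 direction with 4 bases between them was in none of the members' promoters and in 0.0152% of all promoters. The GC box GGGCGG (35.7% of all entries) was in 10 of the 12, from Mme, Ece1, Ece2, Ctsd, Timp2 and Cst3, and TATAAA (13.6% of all promoters) was in none of the members' entries. Some windows of Ece1 and of Mme overlap, so the 12 entries are not independent and the same bases can count more than once. In the same windows the LXR target genes Abca1 and Srebf1 held no AGGTCA, and Abca1 held CACGTG. The window of Tpp1, a lysosomal protease, held neither. Only exact copies were searched, so sites that differ in a letter were not counted, in these genes or in the members. So these exact letters did not mark the known genes of either kind here, and their absence does not show that a site is lacking. The 250 bases before the start are shown for the 4 genes with CACGTG or AGGTCA, with those letters in capitals.
Ide (chr19:37334545-37334794, minus strand): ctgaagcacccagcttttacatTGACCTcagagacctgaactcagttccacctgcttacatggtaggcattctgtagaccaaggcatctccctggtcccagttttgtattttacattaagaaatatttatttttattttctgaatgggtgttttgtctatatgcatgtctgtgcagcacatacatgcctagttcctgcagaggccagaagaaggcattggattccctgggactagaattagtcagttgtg
Ece1 (chr4:137913308-137913557, plus strand): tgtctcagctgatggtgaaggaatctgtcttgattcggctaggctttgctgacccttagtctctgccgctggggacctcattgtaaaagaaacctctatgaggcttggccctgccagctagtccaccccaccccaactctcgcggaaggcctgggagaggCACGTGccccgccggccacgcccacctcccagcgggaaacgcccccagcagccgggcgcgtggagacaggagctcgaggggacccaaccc
Ctsd (chr7:142387828-142388077, minus strand): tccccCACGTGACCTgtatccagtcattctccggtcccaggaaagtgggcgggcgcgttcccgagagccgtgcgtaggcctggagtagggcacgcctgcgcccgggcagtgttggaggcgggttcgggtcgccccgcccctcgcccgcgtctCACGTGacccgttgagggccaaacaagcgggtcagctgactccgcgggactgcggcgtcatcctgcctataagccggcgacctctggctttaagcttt
Cst3 (chr2:148875513-148875762, minus strand): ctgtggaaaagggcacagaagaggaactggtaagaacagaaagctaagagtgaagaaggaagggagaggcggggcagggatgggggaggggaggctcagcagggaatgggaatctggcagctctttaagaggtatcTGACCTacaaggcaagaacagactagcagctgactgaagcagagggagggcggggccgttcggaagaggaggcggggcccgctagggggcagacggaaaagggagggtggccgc
The Ctsd stretch holds CACGTG at positions -245 and -98, counted by the first base from the start of transcription, and 2 or more copies were in 0.594% of all promoters. Its TGACCT at -241 overlaps the first of them. TGACCT lies at -228 in the Ide stretch and at -114 in the Cst3 stretch, and CACGTG lies at -90 in the Ece1 stretch. A match describes the letters of this window, not a bound site.

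The arrays were scaled to the same trimmed mean of 99.97, with medians from 19.4 to 28.9, and any pair of arrays correlated at 0.956 to 0.987. Treatment was checked by Abca1 and Srebf1, LXR target genes. In treated against vehicle Tg2576 they were higher by 0.61 (SE 0.08) and 0.63 (SE 0.09) on the log2 scale, with limma adjusted p of 0.000164 for Abca1. The brightest App and Prnp probe sets, in contrast, were not called in vehicle Tg2576 against wild type, at -0.10 and -0.03. These probe sets are named for the mouse genes, so they do not settle the level of the human transgene. Vehicle Tg2576 replicates 3 and 4 stood apart from all others in the 3' to 5' ratio of the Gapdh control probe sets, at 0.11 and 0.08 on the log2 scale beside -0.08 in the next animal.

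No protease or inhibitor of the set changed past the test in any comparison. Of the 26 probe sets tested, 0 had a limma adjusted p under 0.05 in vehicle Tg2576 against wild type, where 0.159% of all 27022 probe sets tested were called. The count was 0 of 26 in treated against vehicle Tg2576 (0.141% of all called) and 0 of 26 in treated Tg2576 against wild type (0.144% of all called). At an unadjusted p under 0.05 there was 1 member probe set in the first comparison, a Timp2 probe set, and there were 0 in each of the other comparisons, against 9.7%, 10.5% and 8.2% of all probe sets. Values were on both sides of 0: 15, 10 and 16 of the 26 differences were above 0, against 50.1%, 51.3% and 52.2% of all. The median size of a member's log2 difference was 0.066, 0.04 and 0.056 in the 3 comparisons, beside 0.07, 0.071 and 0.065 over all probe sets tested. The median SE was 0.103 for members and 0.09 for all. Groups that did not overlap were found for 0 of the 26, beside 0.0259%, 0.0074% and 0.0148% of all probe sets. In bulk tissue, fewer cells of a type and less RNA per cell cannot be told apart, so these values describe the whole hippocampus only. A probe set's signal depends on its own sequence, so no gene's level was set against that of another.

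**Figure D1:**
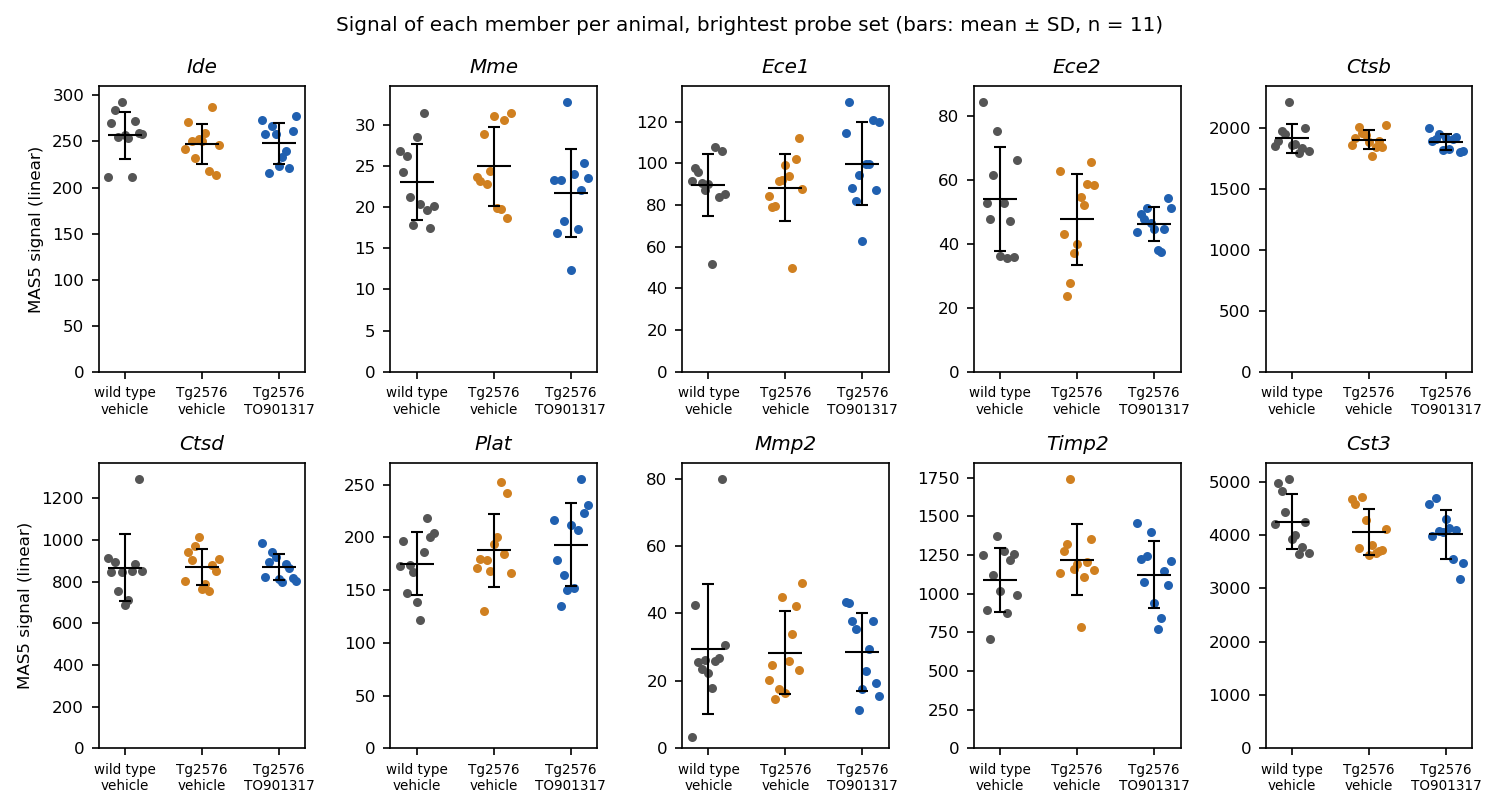
Linear MAS5 signal (y axis, from 0) of the brightest probe set of each member in every animal, by group (x axis); each point is 1 animal and the bars are the mean ± SD, n = 11. The 3 groups overlap for each of the 10 genes, and 1 wild-type animal lies far above the rest for Ctsd and Mmp2.

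**Figure D2:**
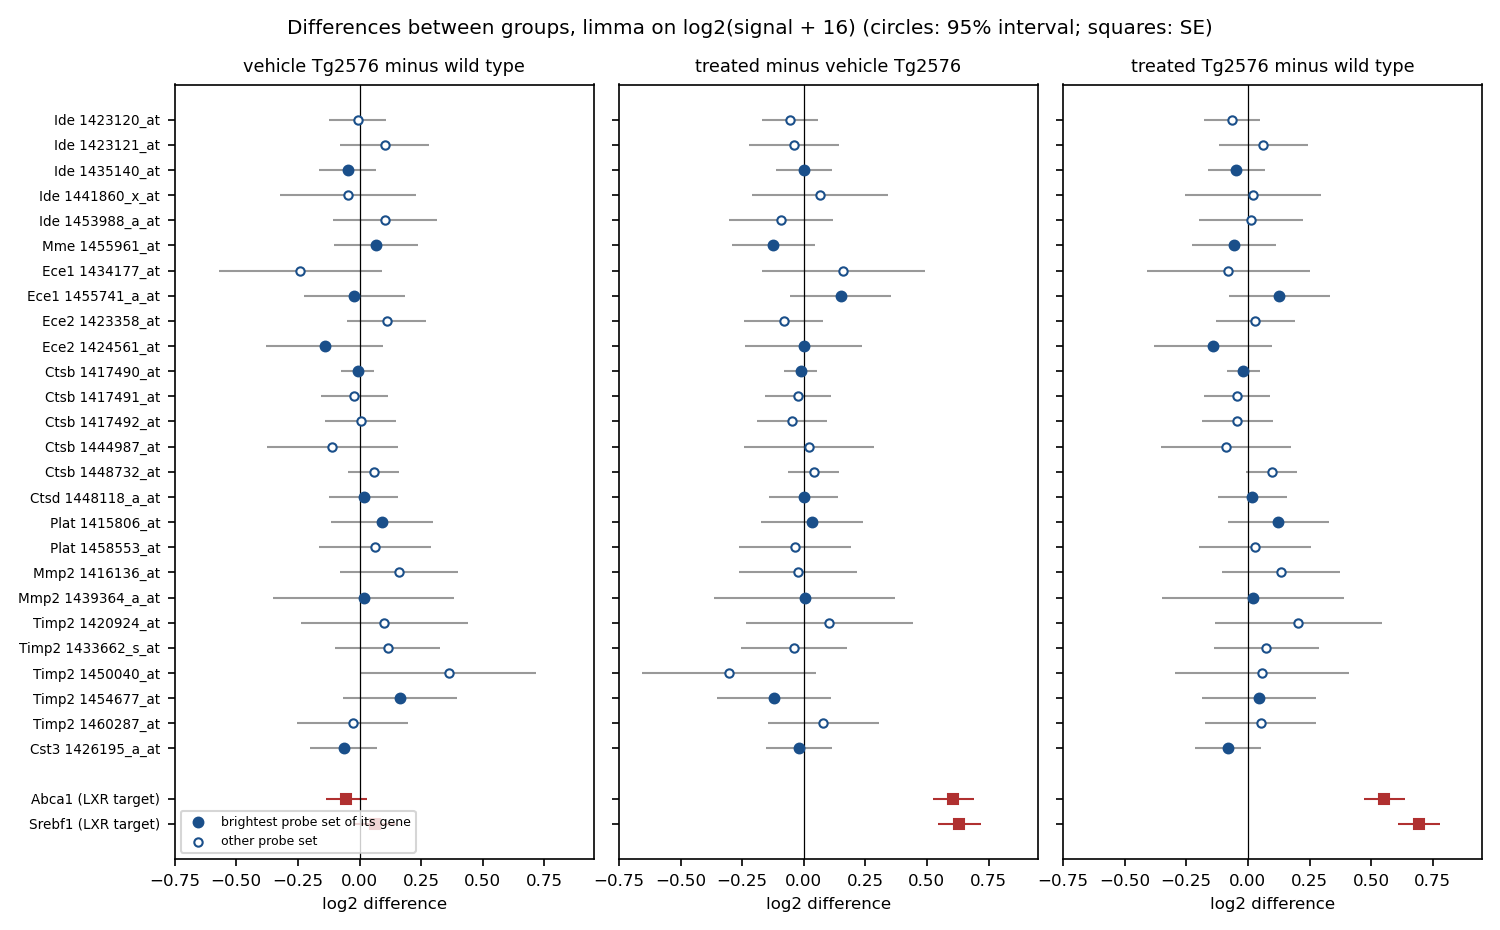
Log2 differences (x axis) of the 26 member probe sets (y axis) in the 3 comparisons, with 95% intervals, beside the LXR targets Abca1 and Srebf1 with their SE; filled circles are the brightest probe set of a gene. In the left panel 25 of 26 members' intervals include 0 (Timp2 1450040_at runs from 0.01 to 0.72), in the other panels all 26 do, and Abca1 and Srebf1 lie well to the right of 0 in both panels with treated animals.

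Among the metalloproteases, Ide, which cleaves insulin and monomeric amyloid-beta in the cytosol and outside the cell, did not pass the test in any comparison. Signals of Ide probe set 1435140_at, its brightest, ran from 211 to 293 (median 258) in wild type, from 214 to 288 (median 250.3) in vehicle Tg2576 and from 215 to 278 (median 258) in treated Tg2576. The lowest and highest animals of the 3 groups were nearly the same. The log2 difference was -0.05 (SE 0.06, limma adjusted p = 0.842) in vehicle Tg2576 against wild type and had a 95% interval of -0.11 to 0.12 in treated against vehicle Tg2576. The other 4 Ide probe sets gave -0.01, 0.10, -0.05 and 0.10 in the first comparison and -0.06, -0.04, 0.07 and -0.09 in the second. They fell on both sides of 0, and the lowest adjusted p among them was 0.769 in the first comparison and 0.783 in the second. Their mean signals, in the same order, were 132, 50.2, 33.3 and 31.0, beside 251 for the brightest.

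Mme encodes neprilysin, a membrane enzyme whose active site faces outward. Signals of Mme probe set 1455961_at ran from 17.4 to 31.4 (median 21.2) in wild type, from 18.7 to 31.4 (median 23.6) in vehicle Tg2576 and from 12.3 to 32.7 (median 23.2) in treated Tg2576. Treated animals held both the lowest and the highest value of all 33. On the log2 scale the difference was 0.07 (SE 0.08) in vehicle Tg2576 against wild type and -0.12 (interval -0.29 to 0.05, adjusted p = 0.647) in treated against vehicle Tg2576. Its level is close to the filter limit, a mean signal of 13.9. The second Mme probe set, 1422975_at, had a mean of 6.42 and was left out of the tests.

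The endothelin-converting enzymes make endothelin from its precursor and also cleave amyloid-beta, Ece1 at several membranes and Ece2 in acidic compartments. Signals of Ece1 probe set 1455741_a_at ran from 51.6 to 108 (median 90.6) in wild type, from 49.8 to 112 (median 91.4) in vehicle Tg2576 and from 62.9 to 129 (median 99.4) in treated Tg2576. The treated group had the highest median and the highest single animal, and the 3 groups overlapped. The Ece1 log2 difference was 0.15 in treated against vehicle Tg2576 (SE 0.10, interval -0.06 to 0.35, adjusted p = 0.643) and -0.02 in vehicle Tg2576 against wild type. A second Ece1 probe set, 1434177_at, gave 0.16 and -0.24 in these comparisons and -0.08 in treated Tg2576 against wild type, where the brightest gave 0.13. Both probe sets thus differed in sign in that last comparison. Probe set 1434177_at was dim, with a mean signal of 21.5 and animals from 2.08 to 48.3. The third, 1441423_at, had a mean of 3.24 and was not tested.

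Neither tested Ece2 probe set was called in any comparison. Signals of Ece2 probe set 1424561_at ran from 35.8 to 84.4 (median 52.8) in wild type, from 23.7 to 65.8 (median 52.3) in vehicle Tg2576 and from 37.5 to 54.5 (median 46.5) in treated Tg2576. The SD was 16.3 in wild type, 14.2 in vehicle Tg2576 and 5.31 in treated Tg2576, whereas for the other tested Ece2 probe set it was 3.81, 6.5 and 4.39, and differences in spread were not tested. The log2 difference from wild type was -0.14 in vehicle Tg2576 (SE 0.12, adjusted p = 0.752) and -0.14 in treated Tg2576 (adjusted p = 0.85). That other probe set, 1423358_at, gave the opposite sign, at 0.11 and 0.03. Its mean signal was 26.2, beside 49.4 for the brightest. RefSeq also lists a readthrough gene of Eef1akmt4 and Ece2, and the values do not tell its transcripts from those of Ece2.

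Ctsb, a cysteine protease of the lysosome, was the most tightly measured member. Signals of Ctsb probe set 1417490_at ran from 1798 to 2213 (median 1874) in wild type, from 1769.8 to 2024 (median 1894) in vehicle Tg2576 and from 1807 to 2004 (median 1908) in treated Tg2576. The coefficient of variation over all 33 animals was 4.58%. The fitted log2 difference was -0.01 in vehicle Tg2576 against wild type, -0.01 in treated against vehicle Tg2576 and -0.02 in treated Tg2576 against wild type, each with an SE of 0.03. As a fold, the 95% interval was 0.950 to 1.04 in the first comparison and 0.946 to 1.04 in the second, the narrowest of the 10 genes. A second Ctsb probe set, 1448732_at, had medians of 1333, 1406 and 1432 in wild type, vehicle and treated Tg2576. It stood 0.10 above wild type in treated Tg2576 (SE 0.05, unadjusted p = 0.0637, adjusted p = 0.647), where the brightest was slightly below 0. The remaining Ctsb probe sets gave -0.05, -0.04 and -0.09 in that comparison.

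Ctsd, the aspartic protease of the lysosome, was not called in any comparison, and 1 animal stood far above the rest. Signals of Ctsd probe set 1448118_a_at, the only one named for this gene, ran from 687 to 1293 (median 850.1) in wild type, from 756 to 1015 (median 878) in vehicle Tg2576 and from 799.7 to 986 (median 865) in treated Tg2576. Wild-type replicate 10 had the value of 1293, and the next highest of all animals was 1015. The log2 difference was 0.02 in vehicle Tg2576 against wild type (SE 0.07, interval -0.12 to 0.16) and had an interval of -0.14 to 0.14 in treated against vehicle Tg2576. Without wild-type replicate 10 the first of these was 0.08. The same animal had the highest score of choroid plexus markers, 2.94 against 1.88 in the next animal. Over 33 animals, Ctsd and this score had r = 0.54 (permutation adjusted p = 0.0682) and rho = 0.23 (permutation adjusted p = 0.681), neither past the test. Without the 2 animals farthest from the median r was 0.31. A cause of the high Ctsd value in this animal was not tested.

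Plat cleaves plasminogen to plasmin and in the hippocampus is known for its part in synaptic plasticity. Signals of Plat probe set 1415806_at ran from 121 to 218 (median 174) in wild type, from 130.3 to 252 (median 179) in vehicle Tg2576 and from 135 to 256 (median 207) in treated Tg2576. The medians followed the order wild type, vehicle Tg2576, treated Tg2576, but neighbours in that order did not differ beyond their spread. On the log2 scale the difference was 0.09 (SE 0.10, adjusted p = 0.834), 0.03 (adjusted p = 0.946) and 0.12 (adjusted p = 0.848) in the 3 comparisons. The other Plat probe set, 1458553_at, gave 0.06, -0.04 and 0.03, at a mean signal of 24.8.

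Mmp2, gelatinase A, had the widest relative spread among the brightest probe sets. Signals of Mmp2 probe set 1439364_a_at ran from 3.24 to 80.0 (median 25.9) in wild type, from 14.5 to 49.2 (median 24.6) in vehicle Tg2576 and from 11.4 to 43.4 (median 29.3) in treated Tg2576. Wild type held both extremes, replicate 1 at 3.24 and replicate 10 at 80.0. The Mmp2 log2 difference was 0.02 in vehicle Tg2576 against wild type with an SE of 0.18, and the fold interval of 0.784 to 1.31 was the widest of the 10 genes. Leaving out wild-type replicate 10 moved it to 0.13 and leaving out wild-type replicate 1 to -0.10, so the sign rested on single animals. The second probe set, 1416136_at, gave 0.16 in that comparison (adjusted p = 0.709), and wild-type replicate 10 was again the highest, at 45.7. Of 12 meningeal fibroblast markers, 11 were above 0 in vehicle Tg2576 against wild type, beside 50.1% of all probe sets. Their median was 0.45 and 0 of 12 were called. The score of these markers ran from -0.55 to 0.89 in wild type, from -0.43 to 0.92 in vehicle Tg2576 and from -0.58 to 0.72 in treated Tg2576. With scores of 7 marker lists as covariates, the Mmp2 difference was -0.03, close to the reported 0.02 beside its SE of 0.18. These lists were microglia, astrocyte, oligodendrocyte, endothelial, meningeal fibroblast, pyramidal neuron and dentate granule neuron. Choroid plexus was not among them.

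Of the inhibitors, Timp2 gave the single member probe set with an unadjusted p under 0.05. Signals of Timp2 probe set 1450040_at ran from 152 to 496 (median 293) in wild type, from 166 to 565 (median 358) in vehicle Tg2576 and from 178 to 504 (median 272) in treated Tg2576. Vehicle Tg2576 had the highest median and the highest animal, replicate 4, and the groups overlapped over most of their ranges. The mean signal was 279.8 ± 93.7 in wild type, 363 ± 110.3 in vehicle Tg2576 and 288 ± 84.7 in treated Tg2576 (SD, n = 11 each). On the log2 scale vehicle Tg2576 stood 0.36 above wild type (SE 0.17, limma unadjusted p = 0.0453, adjusted p = 0.502). Treated animals stood at -0.30 from vehicle Tg2576 (adjusted p = 0.556), and at 0.06 from wild type. Neither difference passed the adjustment, and both use the same vehicle Tg2576 animals. Without vehicle Tg2576 replicate 4 the first was 0.29 (limma unadjusted p = 0.0965). With the scores of the same 7 cell type marker lists as covariates, interneurons not among them, it was 0.08. Its SE there was 0.27, beside 0.17 in the reported fit, so that value is less precise.

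The other Timp2 probe sets did not all share that pattern. Signals of Timp2 probe set 1454677_at, the brightest, ran from 708 to 1372 (median 1123) in wild type, from 787 to 1743 (median 1189) in vehicle Tg2576 and from 771 to 1456 (median 1145) in treated Tg2576. Replicate 4 of vehicle Tg2576 was again the highest of all animals. The fitted log2 difference was 0.16 in vehicle Tg2576 against wild type (SE 0.11, adjusted p = 0.683) and -0.12 in treated against vehicle Tg2576 (adjusted p = 0.765). Probe sets 1433662_s_at, 1420924_at and 1460287_at gave 0.11, 0.10 and -0.03 in the first comparison and -0.04, 0.10 and 0.08 in the second. So 1460287_at differed in sign from the brightest in the first, and 1420924_at and 1460287_at did in the second. The sixth Timp2 probe set, 1437081_at, had a mean of 2.32 and was not tested.

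Cst3, a secreted inhibitor of cysteine cathepsins made largely by glia and choroid plexus, was not called in any comparison. Signals of Cst3 probe set 1426195_a_at ran from 3641 to 5057 (median 4215) in wild type, from 3632 to 4707 (median 3819) in vehicle Tg2576 and from 3181 to 4694 (median 4081) in treated Tg2576. Wild type had the highest median and the treated group the lowest animal, with all groups overlapping. The log2 difference was -0.06 (SE 0.07), -0.02 and -0.08 in the 3 comparisons, with adjusted p of 0.814, 0.953 and 0.843. As a fold, treated against vehicle Tg2576 lay in an interval of 0.900 to 1.08.

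Probe sets that name the same gene were compared across animals, as deviations from the group means, to see how far they report a common level. In 11 of 34 pairs the Pearson correlation passed at an adjusted p under 0.05 (within-group permutations, adjusted over the 34 pairs), each positive. Timp2 accounted for 8 of its 10 pairs, with a median r of 0.68 and a highest r of 0.90. Both Mmp2 probe sets correlated at 0.61 and both Plat probe sets at 0.44. Ctsb passed in 1 of 10 pairs. None of the 10 Ide pairs passed, and their median r was -0.005. The pair of Ece1 probe sets had r = 0.01 and that of Ece2 had r = 0.16. Pairs of Timp2, Mmp2 and Plat thus varied together between animals, which was not detected for Ide, Ece1 and Ece2. The dimmer probe set of Ece1 and of Ece2 had a mean signal of 21.5 and 26.2. The Mmp2 pair, at 20.9 and 28.8, was dim too. Ide 1435140_at and 1423120_at, with means of 251 and 132, had r = -0.19.

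**Figure D3:**
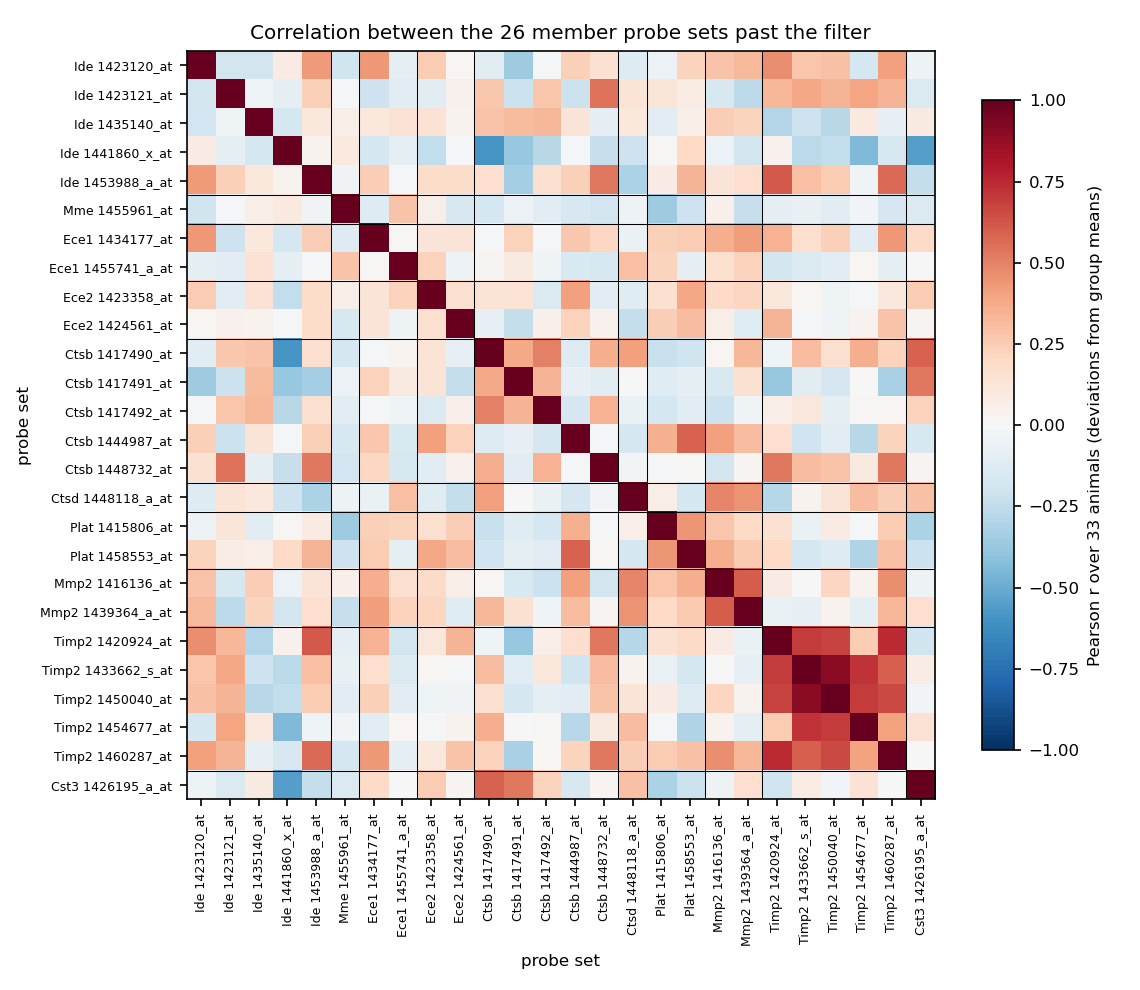
Pearson correlation between the 26 member probe sets (both axes, ordered by gene, black lines between genes) over 33 animals, as deviations from the group means; the colour scale runs from -1 to 1. The 5 Timp2 probe sets form a block of positive correlation with a median r of 0.68, while the 5 Ide probe sets form none.

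Variation between animals of the same group was then set against other members and against cell type markers, by the brightest probe set of each gene. Over 45 pairs of members, 1 passed: Ctsb and Cst3, a protease and its inhibitor, had r = 0.59 (permutation p = 0.00033, adjusted p = 0.0149) and rho = 0.62 (permutation p = 0.00027, adjusted p = 0.0121) over 33 animals. Within groups r was 0.77 in wild type, 0.30 in vehicle Tg2576 and 0.63 in treated Tg2576, and it was 0.55 without the 2 animals farthest from the median. This relation did not hold under another scaling of the arrays: after quantile normalization r was -0.21 (adjusted p = 0.859), and with the mean of each gene's probe sets it was 0.26.

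Timp2 varied with the interneuron markers. The score of the 10 interneuron markers and Timp2 had r = 0.69 (permutation p = 2e-05, adjusted p = 0.002) and rho = 0.72 (permutation p = 1e-05, adjusted p = 0.001, the smallest p that these permutations can give) among 100 relations of members with marker scores. It was 0.82 in wild type, 0.69 in vehicle Tg2576 and 0.58 in treated Tg2576, 0.67 without the 2 farthest animals, and 0.66 after quantile normalization. With the mean of all probe sets of each gene in place of the brightest it was 0.29 (adjusted p = 0.523). Timp2 also had r = -0.51 with dentate granule neuron markers (permutation adjusted p = 0.0682) and r = -0.54 with pyramidal neuron markers (permutation adjusted p = 0.0607), neither past the test. With the mean of all probe sets these were -0.59 and -0.56 (permutation adjusted p = 0.0275 for each), and both passed. The single markers were looked at because their score had passed in these same animals, and were adjusted over the 10 alone. Their p-values are thus no separate support for the relation. Of these markers, Reln (r = 0.69, permutation adjusted p = 0.0002), Sst (0.64, adjusted p = 0.00075), Slc32a1 (0.58, adjusted p = 0.0018) and Lhx6 (0.43, adjusted p = 0.036) passed, the last not by rho. Gad1 (0.24), Gad2 (0.27), Pvalb (0.09), Vip (0.36), Npy (0.13) and Cck (0.02) did not. The interneuron score itself ran from -0.16 to 0.16 in wild type, from -0.13 to 0.23 in vehicle Tg2576 and from -0.27 to 0.10 in treated Tg2576.

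Mmp2 varied with the choroid plexus markers, a tissue that lies next to the hippocampus in the ventricle. Here r was 0.61 (permutation p = 0.00051, adjusted p = 0.0255), but rho was 0.43 (permutation adjusted p = 0.194). Within groups r was 0.64 in wild type, 0.92 in vehicle Tg2576 and 0.24 in treated Tg2576. Without wild-type replicate 10 it was 0.49. The choroid plexus score ran from -0.99 to 2.94 in wild type, from -1.13 to 1.88 in vehicle Tg2576 and from -0.86 to 1.87 in treated Tg2576. By rho, Ctsd with astrocyte markers (rho = 0.63, permutation adjusted p = 0.0065) and Plat with meningeal fibroblast markers (rho = 0.57, permutation adjusted p = 0.0367) passed. Their r was 0.49 and 0.52 (permutation adjusted p = 0.116 and 0.0658), not past the test. Counted by Pearson r, the relations past the test rose from 2 of 100 to 6 of 100 after quantile normalization. There Ctsd passed with choroid plexus (0.63) and endothelial markers (0.57) in addition. Plat with meningeal fibroblast markers (0.52) and Timp2 with pyramidal neuron markers (-0.63) passed there as well. None of the 30 relations of members with array measures (array median and the 3' to 5' ratios of Gapdh and beta-actin) passed the same permutation test.

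**Figure D4:**
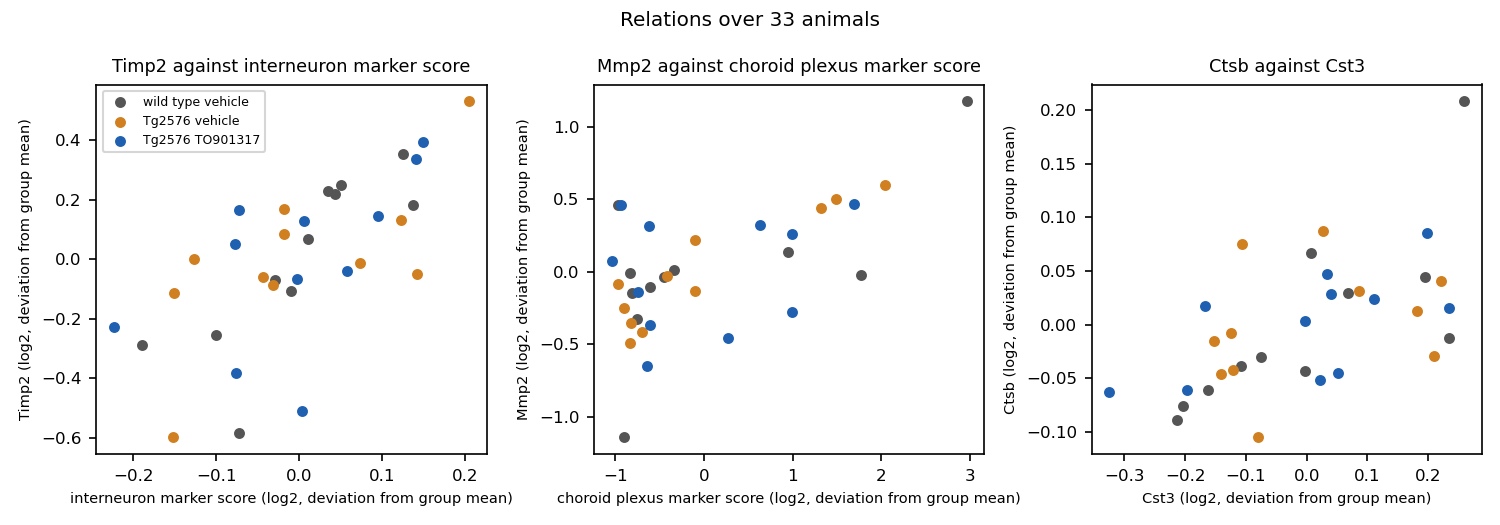
Each point is 1 animal, coloured by group; axes are log2 deviations from the group mean of Timp2 against the interneuron score (left), Mmp2 against the choroid plexus score (middle) and Ctsb against Cst3 (right). Timp2 rises along the score in each group, and 1 wild-type animal lies alone at the upper right of the Mmp2 panel.

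The genes whose pattern was most like each member were found by the highest Pearson r over 33 animals among the probe sets tested, which is a description with no test because the highest of many was taken. For Timp2 these were Fxyd6 (0.85), Ssbp2 (0.83) and Wdr6 (0.83), and after quantile normalization they stood at 0.85, 0.81 and 0.81. For Ctsd they were Atox1 (0.85), Tpp1 (0.83) and S100a1 (0.82), of which Tpp1 is another lysosomal protease, and these stood at 0.83, 0.84 and 0.80 after it. For Ece1 they were Tfeb (0.73), Lyz1 (0.62) and Rnft1 (0.61), which stood at 0.75, 0.67 and 0.66 after it. Mmp2 was nearest to Elovl7 (0.75), Ifi27 (0.74) and Col8a2 (0.70). For Cst3 the nearest were Rps28 (0.90), Cox5b (0.89) and Rps29 (0.89), which fell to 0.38, 0.53 and 0.51 after quantile normalization. Ctsb was nearest to Rtn1 (0.79), Ndufa4 (0.78) and Gng3 (0.78), which fell to 0.22, 0.13 and 0.26. The nearest genes of the remaining members were for Ide Efcab14 (0.66), Cntln (0.64) and Fech (0.64), for Mme Fcgr2b (0.68), Ccdc127 (0.65) and Brip1os (0.61), for Ece2 Pip5k1a (0.72), Rab5c (0.71) and Neurl1b (0.70), and for Plat Cdc73 (0.70), Cp (0.68) and Sf3b6 (0.65).

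Around the members stand other genes of the same pathway, counted by 1 probe set each. A list of other amyloid-beta degrading proteases had 14 tested of 20 symbols, a list of other inhibitors and regulators 16 of 21, and a list of lysosome biogenesis genes 12 of 16. In vehicle Tg2576 against wild type, 2 of the 42 tested genes passed, both among the inhibitors and regulators, where 0.0703% of all probe sets were called higher and 0.0888% lower. The lists were chosen with earlier results of these data known. The counts of listed genes called, here and below, therefore cannot be read as an excess over the shares of all probe sets. Timp4, a metalloproteinase inhibitor, fell by 0.36 on the log2 scale, from 221 ± 33.7 to 168 ± 29.5 (SD, n = 11 each, limma adjusted p = 0.0435). Its second probe set fell by 0.37 (adjusted p = 0.0199). In treated Tg2576 against wild type Timp4 stood at -0.32 (adjusted p = 0.0936). S100a10, the partner of annexin A2 that binds Plat and plasminogen at the cell surface, rose by 0.47, from 116 ± 21.1 to 168 ± 32 (adjusted p = 0.0435), while another S100a10 probe set stood at 0.24 and was not called (adjusted p = 0.584). Beside both, 11 of 12 meningeal fibroblast markers lay above 0, with 0 called, and 3 of 12 astrocyte markers lay above 0, with a median of -0.15 and 1 called, Slc4a4, which fell by 0.27 (adjusted p = 0.00279) in the same comparison. Of the dentate granule neuron markers 1 of 8 lay above 0, with a median of -0.20 and 1 called, Tdo2, which fell by 0.77 (adjusted p = 0.00202). Of the oligodendrocyte markers 1 of 9 lay above 0, with a median of -0.16 and 0 called. Neither Timp4 nor S100a10 was called when the scores of 7 marker lists, these lists among them, were covariates. Such scores can themselves differ between groups: the dentate granule score had means of 0.17 in wild type and -0.12 in vehicle Tg2576. Covariates that differ so make the group difference less precise, so a lost call in that fit is no result about a cause. Over the 14 alternative settings Timp4 ran from -0.39 to -0.008 and S100a10 from 0.36 to 0.60. A cause of either result was not tested. Both calls were near the threshold: Timp4 was lost in 21 and S100a10 in 19 of 33 fits that each left out 1 animal.

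In treated against vehicle Tg2576, 0 of the 42 genes passed by limma. At an unadjusted p under 0.05 there were 2 of 14 proteases, 3 of 16 inhibitors and regulators and 2 of 12 lysosome genes, against 10.5% of all probe sets. These counts were 1, 7 and 1 in vehicle Tg2576 against wild type, against 9.7% of all, and 1, 4 and 2 in treated Tg2576 against wild type, against 8.2% of all. The values of smallest p were Lap3, a leucine aminopeptidase, at -0.20 (adjusted p = 0.0526), S100a10 at -0.36 (adjusted p = 0.183) and Psap, the precursor of the saposins, at 0.22 (adjusted p = 0.0958). In treated Tg2576 against wild type 1 of 42 passed, beside 0.074% of all probe sets called lower. Lap3 fell by 0.27, from 241 ± 17 in wild type to 197 ± 14.3 in treated Tg2576 (adjusted p = 0.00226), with vehicle Tg2576 at 229 ± 14.8. No animal left out ended that call. The lysosome list had 0 genes called in each comparison by limma, with the unadjusted counts given above. Psap stood at -0.18 in vehicle Tg2576 against wild type (adjusted p = 0.204) and Hexa, a lysosomal hexosaminidase, at -0.16 in treated Tg2576 against wild type (adjusted p = 0.361). Among the proteases, Htra1 stood at -0.21 in vehicle Tg2576 against wild type (adjusted p = 0.334). The median log2 difference of the protease, inhibitor and lysosome lists was 0.03, 0.09 and 0.02 in vehicle Tg2576 against wild type and -0.02, -0.04 and -0.05 in treated against vehicle Tg2576, against 0.0003 and 0.004 over all probe sets tested.

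**Figure D5:**
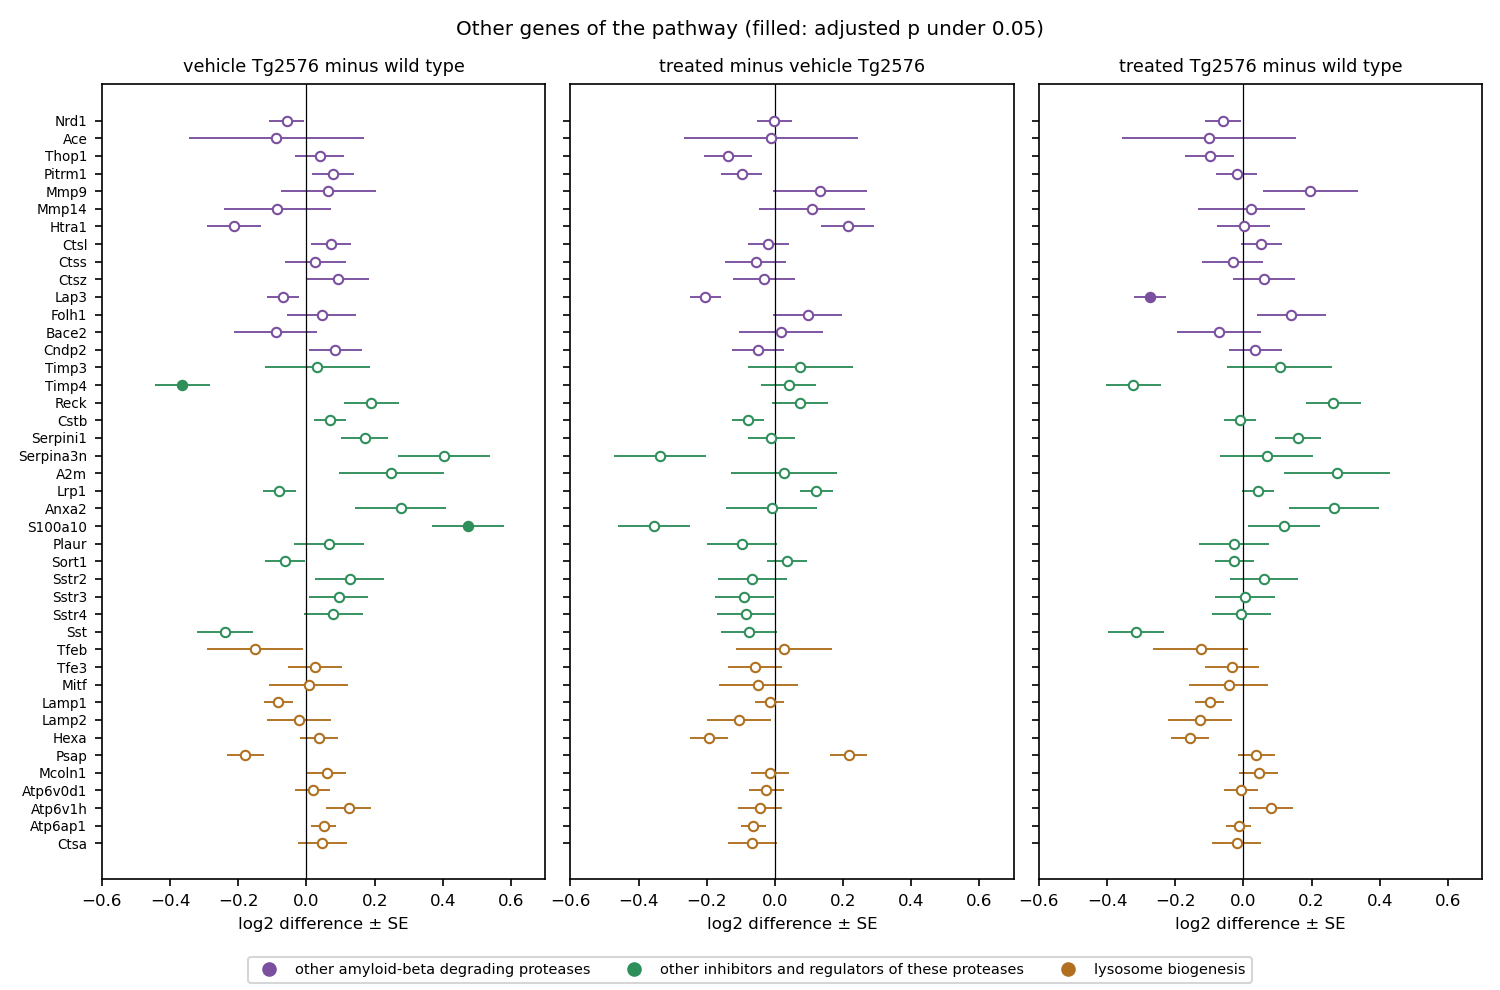
Log2 differences ± SE (x axis) of the 42 other pathway genes (y axis), coloured by list, in the 3 comparisons; filled circles passed at an adjusted p under 0.05. Timp4 and S100a10 are filled in vehicle Tg2576 against wild type, Lap3 in treated Tg2576 against wild type, and none in treated against vehicle Tg2576.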

How the data were processed

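Total RNA of the right hippocampus was hybridised to 33 Affymetrix MOE430 2.0 arrays, and groups were taken from the labels, which call the samples biological replicates. The authors deposited linear array intensity, computed with MAS5 per the submitters' processing notes. Its version and settings are not stated there. Of 45101 probe sets, 64 controls were left out. Gene names are those of the array's annotation table: 34945 probe sets name 1 gene, 932 several and 9160 none here.

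Each signal was converted to log2(signal + 16), which understates changes of dim genes. The 40 percent of probe sets with the lowest mean signal, below 13.9, were not tested, which left 27022. The limma 3.58.1 model (R 4.3.3) had a mean for each group, used every array, and moderated variances with the trend and robust options. Adjustment was by Benjamini-Hochberg over all probe sets tested, with a limit of 0.05. Correlations over animals used deviations from group means and 100000 two-sided permutations within groups (numpy 2.4.6, scipy 1.17.1). A marker score is the mean of such deviations over a list's tested markers, or of deviations from the overall mean where its range is given per group. Other pseudocounts, filters, normalizations, probe set rules, covariates, a replicate block and each animal left out were tried as alternatives.

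The members, gene lists and motifs were chosen with earlier results of these data known. Each member is named through its probe set of highest mean and through others that differ in sign, and other pathway genes where called or, otherwise, as the 1 gene of smallest p per list and comparison. The fit was tested on simulated data. The number of arrays limits the precision, and scan dates and detection calls were not used here.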

Additional observations from a re-analysis of the deposited data

How the results depend on the processing

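Across 14 alternatives and 33 fits that left out 1 animal each, 0 of the member probe sets or gene means tested were called in any comparison. How many were tested differed between settings. The lowest adjusted p of a member in these and the reported fit was 0.285, for Timp2 1450040_at without vehicle Tg2576 replicate 7, where its log2 difference from wild type was 0.46. Over the 30 values of the 10 brightest member probe sets, none of them called, the sign changed in 13 under some alternative and in 14 when some animal was left out. The cause was not tested. The values below are log2 differences, and Timp4, which is no member, is included. With the mean of a gene's probe sets the sign changed for Ide 0.0208 (vehicle Tg2576 against wild type), Ide -0.0243, Plat -0.00194, Mmp2 -0.0108 (treated against vehicle Tg2576). After quantile normalization the sign changed for Ctsb 0.0102 (vehicle Tg2576 against wild type), Mmp2 -0.00924 (treated against vehicle Tg2576). With arrays centred on their median the sign changed for Ctsb 0.000487 (vehicle Tg2576 against wild type), Ide -0.0104, Mmp2 -0.00823 (treated against vehicle Tg2576). With the Gapdh ratio as covariate the sign changed for Ctsd -0.00374 (vehicle Tg2576 against wild type), Ctsd 0.0321, Plat -0.0107, Mmp2 -0.0426, Cst3 0.0147 (treated against vehicle Tg2576). Without vehicle Tg2576 replicates 3 and 4 the sign changed for Ctsd -0.00609 (vehicle Tg2576 against wild type), Ide -0.00581, Ctsb 0.000193, Ctsd 0.024, Plat -0.0245, Mmp2 -0.0904 (treated against vehicle Tg2576). With a pseudocount of 64 the sign changed for Mmp2 -0.00407 (vehicle Tg2576 against wild type), Mmp2 -0.00179 (treated Tg2576 against wild type). With marker scores as covariates the sign changed for Mmp2 -0.0275 (vehicle Tg2576 against wild type), Ece2 0.11, Ctsb 0.0269, Timp4 -0.17 (treated against vehicle Tg2576), Ide 0.0191 (treated Tg2576 against wild type). With a pseudocount of 1 the sign changed for Ece2 0.0158, Ctsd 3.51e-05, Mmp2 -0.00188 (treated against vehicle Tg2576). Leaving out each animal in turn gave ranges that cross 0. In vehicle Tg2576 against wild type these ranges were Ece1 -0.085 to 0.0427, Ctsb -0.0155 to 0.0142, Ctsd -0.013 to 0.0767, Mmp2 -0.0976 to 0.13. In treated against vehicle Tg2576 these ranges were Ide -0.0181 to 0.0222, Ece2 -0.0646 to 0.0396, Ctsd -0.0192 to 0.0224, Plat -0.0141 to 0.0768, Mmp2 -0.0458 to 0.0686, Cst3 -0.041 to 0.0149. In treated Tg2576 against wild type these ranges were Ctsb -0.0282 to 0.00153, Ctsd -0.013 to 0.0767, Mmp2 -0.0941 to 0.14, Timp2 -0.0131 to 0.0964.

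The count of other pathway genes called in vehicle Tg2576 against wild type, reported as 2, was 1 with a pseudocount of 1, without the filter, with the mean of a gene's probe sets, with the Gapdh ratio as covariate and without vehicle Tg2576 replicates 3 and 4. It was 0 with arrays centred on their median, with only both groups compared, without the trended and robust variance and with marker scores as covariates, and 0 to 2 when each animal was left out. Timp4 lost its call in 5 of 14 alternatives and without wild-type replicates 1, 2, 3, 8, 9, 10 and 11, vehicle Tg2576 replicates 3, 6, 7, 8, 9, 10 and 11, or treated replicates 2, 4, 5, 7, 8, 9 and 10. S100a10 lost its call in 8 alternatives and without wild-type replicates 1, 3, 4, 6, 7, 8, 10 and 11, vehicle Tg2576 replicates 1, 2, 3, 4, 5, 6, 9 and 10, or treated replicates 2, 5 and 8. In treated against vehicle Tg2576 the count of 0 became 1 with a pseudocount of 1, with the lowest 60 percent left out, with 1 probe set per gene, with the mean of probe sets and with the replicate block, and was 0 to 1 when each animal was left out. In treated Tg2576 against wild type the count of 1 became 2 with the mean of probe sets and 0 with marker scores as covariates, and stayed at 1 when each animal was left out.

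Pairs of members that passed numbered 1, and 0 after quantile normalization and with the mean of probe sets, and the correlation of Ctsb and Cst3 reversed to -0.21 after quantile normalization. Relations with marker scores that passed by Pearson r numbered 2, and 4 with a pseudocount of 64, 6 after quantile normalization and 4 with the mean of probe sets. Replicate numbers were not used as pairs. Of 11 same-numbered pairs, 2, 7 and 4 correlated above 0.1 in the 3 comparisons, with a median r of 0.06, 0.10 and 0.07. By number, 1, 2 and 2 animals correlated best with their own. A weak effect shared by animals of 1 number was not tested. With the replicate number as a block 0 member probe sets were called, and all calls numbered 50, 38 and 42. Calls over all probe sets, reported as 43, 38 and 39, ran from 0 to 66, 4 to 59 and 1 to 66 over the alternatives and from 25 to 58, 14 to 51 and 25 to 61 when each animal was left out. The 3 member probe sets below the signal limit were tested only in the alternative without the filter, and Mme and Mmp2 have no value when the lowest 60 percent are left out.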
